A study of Mus musculus with 16 samples.

Results

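The genes described are 10 carriers that take up the products of protein digestion, found by name in the tables of all 3 segments of the small intestine, 10 of 48440 genes in each table. They were chosen by name and not by a cutoff on their values, but earlier results of these data were known when they were chosen. RNA-Seq was performed on GFP+ cells sorted from female Lgr5-EGFP mice, in which the stem cell gene Lgr5 drives green fluorescent protein. All mice were made obese on a 60% fat diet for 16 weeks and then received VSG, a vertical sleeve gastrectomy, or sham surgery. For its other mice the study describes VSG as removal of 80% of the stomach and sham surgery as light pressure on a stomach left whole. The study's methods give an age of 8 to 16 weeks for all its animals, without saying at which step, and cells were sorted 4 weeks after surgery, 15 minutes after a liquid meal, from 6 cm of each segment. The mice had fasted overnight, and CD31+, CD45+, annexin V+ and dead cells were removed before the GFP+ cells were taken. Of 16 libraries from 7 mice, 6 were duodenal and 6 jejunal, with 4 VSG and 2 sham mice that gave both segments. The other 4 were ileal, from 2 VSG mice and the same 2 sham mice. Within a surgery, libraries with 1 replicate number came from 1 mouse.

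Dietary protein reaches the gut wall as di- and tripeptides and as free amino acids. Absorptive enterocytes take these up across the apical membrane, the brush border that faces the lumen, and release amino acids to the blood across the basolateral membrane. Several of the carriers work in pairs, a light chain that moves the amino acid and a heavy chain that brings it to the membrane. The apical members are Slc15a1 (the peptide carrier PEPT1), Slc6a19 (B0AT1, neutral amino acids), Slc6a20a (SIT1, proline), Slc7a9 and Slc3a1 (the light and heavy chains of the cystine and dibasic amino acid carrier), Slc1a1 (EAAT3, glutamate and aspartate) and Slc36a1 (PAT1, a proton-coupled carrier of small amino acids that also sits on lysosomes). The basolateral members are Slc7a7 (y+LAT1, dibasic amino acids), Slc7a8 (LAT2, neutral amino acids) and their common heavy chain Slc3a2 (4F2hc). Stem cells at the crypt base give rise to enterocytes, which gain many of these carriers as they mature.

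The sorted libraries carried both stem cell and enterocyte RNA. All 8 stem cell markers were tested in the duodenum, yet each of 11 enterocyte markers, among them Alpi, Sis and Fabp1, was also above 0 in all 16 libraries. Lgr5 itself was listed at 0 in sham replicate 1 of the jejunum and of the ileum. The immune markers summed to at most 32.7 CPM, which is here the normalized count divided by the library's total and multiplied by 1000000. Jejunal libraries stood apart in 2 cases. Jejunum VSG replicate 1 had 196951 normalized counts of Fabp6, the bile acid binding protein of the ileum, where the rest of the jejunum had 15.8 to 313 and the ileum 29162 to 208801. Its Gata4, a factor of the proximal intestine, was at 322 against 4619 to 6380.0 elsewhere in the jejunum. Jejunum sham replicate 1 had an enterocyte marker sum of 42259 CPM against 11763 to 25036 in the other 5 jejunal libraries, and a stem cell marker sum of 244 against 926 to 1464. Jejunal differences are given with all libraries first and then without these 2.

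The 10 carriers lie on 7 chromosomes of GRCm38. Slc15a1 (ENSMUSG00000025557, chromosome 14, 121459621 to 121505252, minus strand, 23 exons), Slc6a19 (ENSMUSG00000021565, chromosome 13, 73679745 to 73704865, minus strand, 12 exons) and Slc6a20a (ENSMUSG00000036814, chromosome 9, 123634770 to 123678885, minus strand, 11 exons) are the members with the lowest values after VSG relative to sham in the duodenum. Slc7a9 lies on chromosome 7, Slc3a1 on 17, Slc36a1 on 11, and Slc1a1 and Slc3a2 on 19. Slc7a7 and Slc7a8 lie 304 kb apart on the minus strand of chromosome 14. Windows from 250 bases before to 50 bases after each RefSeq start site were read for all members, which had 15 windows among them, to show what letters their starts share. For Slc6a19 and Slc3a2 the only window lies inside the gene, at 73692587 to 73692886 and 8713848 to 8714147. The spans of these minus strand genes begin at 73704865 and 8723369. The windows of 4 members are shown as examples, chosen after the matches were seen. Windows of Slc7a7 and Slc7a9 also hold matches and are not printed. Capitals mark every match on either strand to a fixed set of motifs. GTTAAT is a short form of the site of HNF1. CAAAGT is the core of the site of HNF4. TTTATG is bound by CDX2. AGATAA is bound by GATA factors. TGATGNAA is the composite site of ATF4. CACGTG is an E-box, the site of several helix-loop-helix factors. TATAAA is the TATA box. All are 5′ to 3′ on the gene's strand in GRCm38.p6.
Slc6a20a, chr9:123678783-123679082, minus strand: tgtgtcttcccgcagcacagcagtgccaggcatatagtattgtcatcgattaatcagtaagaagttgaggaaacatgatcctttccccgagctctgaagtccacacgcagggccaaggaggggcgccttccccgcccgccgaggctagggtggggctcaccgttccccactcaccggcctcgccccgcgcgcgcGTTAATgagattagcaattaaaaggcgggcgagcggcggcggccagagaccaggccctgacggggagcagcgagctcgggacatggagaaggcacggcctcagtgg
Slc15a1, chr14:121505205-121505504, minus strand: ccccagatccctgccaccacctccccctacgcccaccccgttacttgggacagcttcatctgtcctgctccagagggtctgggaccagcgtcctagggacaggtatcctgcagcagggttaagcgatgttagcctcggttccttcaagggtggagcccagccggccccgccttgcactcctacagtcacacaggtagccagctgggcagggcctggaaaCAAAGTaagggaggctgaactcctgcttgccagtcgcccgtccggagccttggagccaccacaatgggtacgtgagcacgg
Slc3a1, chr17:85028097-85028396, plus strand: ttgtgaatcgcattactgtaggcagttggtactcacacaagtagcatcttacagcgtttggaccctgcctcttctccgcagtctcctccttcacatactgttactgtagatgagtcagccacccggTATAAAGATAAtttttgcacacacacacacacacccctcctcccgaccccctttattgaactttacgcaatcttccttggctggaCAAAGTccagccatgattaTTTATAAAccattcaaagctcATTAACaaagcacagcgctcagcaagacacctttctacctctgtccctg
Slc36a1, chr11:55204090-55204389, plus strand: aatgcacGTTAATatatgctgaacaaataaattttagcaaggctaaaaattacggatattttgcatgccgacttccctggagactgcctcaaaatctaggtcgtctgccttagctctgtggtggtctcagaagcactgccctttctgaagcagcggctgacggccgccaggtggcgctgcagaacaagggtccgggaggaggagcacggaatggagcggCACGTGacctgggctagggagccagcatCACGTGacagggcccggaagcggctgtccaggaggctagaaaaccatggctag
GTTAAT began 56 bases before the start site of Slc6a20a, and it was also in a window of Slc3a1, Slc36a1 and Slc7a7, so 4 of 15 member windows held it against 7.10% of all 32851 windows. CAAAGT began 31 bases before the start of Slc15a1 and 39 bases before that of Slc3a1, and was in 3 of 15 member windows against 14.4% of all. Slc36a1 held CACGTG at 2 places, 31 and 3 bases before its start, and no other member window held it, against 7.15% of all windows. AGATAA was in 4 member windows, of 3 members, against 11.2% of all. TGATGNAA was in 2, both of 1 member (Slc7a7), against 3.97%, TATAAA in 1 against 13.6% and TTTATG in 0 against 11.9%. Windows of 1 gene can overlap, and the Slc7a7 windows with AGATAA hold the same site, as do those with TGATGNAA for 1 of their matches. In the Slc3a1 window AGATAA shares a base with a TATAAA. The matches are a description of these letters.

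Along the intestine, 7 of the 10 carriers had their highest mean level in the ileum and 3 in the jejunum, and none in the duodenum. The levels here are in CPM, because the tables of the 3 segments were normalized separately and their totals differ, and for the same reason no test was made between segments. As deposited, before this scaling, 4 members were highest in the ileum and 6 in the jejunum by mean, and 6 and 4 by median. The ileum also has a larger share of sham libraries than the other segments. In CPM, 9 members were highest in the ileum and 1 in the jejunum over VSG libraries alone, and 5 and 5 over sham libraries alone, a split made after the data were seen. Over sham libraries Slc15a1 (521 CPM in the jejunum and 419 in the ileum) and Slc6a20a (488 and 419.7) were highest in the jejunum, as was Slc3a2. Over VSG libraries Slc36a1 and Slc3a2 were highest in the ileum. Slc6a19, Slc7a9, Slc3a1, Slc1a1 and Slc7a7 were highest in the ileum after either surgery. The sorted material also differed along the intestine. Stem cell marker sums were 1276 to 2616 CPM in the duodenum and 206 to 592 in the ileum. Enterocyte marker sums were 6578 to 20174 and 11867 to 24942. Their part in the order of the carriers was not tested, and the share of all genes highest in each segment is not given here. The neutral amino acid carrier Slc6a19 averaged 116 ± 65.1 CPM in the duodenum (SD, n = 6), with 273 ± 103 for the jejunum (n = 6) and 638 ± 350 for the ileum (n = 4). In each of the 3 mice with all segments its ileal level was above its jejunal level.
The peptide carrier Slc15a1 had 89.8 ± 58.9, 310 ± 227 and 453 ± 216 CPM in the same order. Its jejunal level was above the duodenal level in 6 of 6 mice, but its ileal level was above the jejunal level in only 1 of 3 mice, so the order of jejunum and ileum was not larger than the spread between mice. The heavy chain Slc3a1 had 78.8 ± 27.8, 162 ± 39.1 and 387 ± 145 CPM, and its lowest ileal library (276) was above its highest jejunal library (218). Its partner Slc7a9 had 104 ± 46.6, 158 ± 37.4 and 292 ± 57.4 CPM, again with every ileal library (at least 206.1) above every jejunal one (at most 200.3). Slc1a1, the glutamate carrier, averaged 52.4 ± 15.5 CPM in the duodenum, then 101 ± 64.2 and 285 ± 110 in jejunum and ileum, where 3 of 3 mice were above their own jejunal and duodenal levels. Without jejunum VSG replicate 1, which had 226 CPM, its jejunal mean was 75.6. Slc6a20a had 136 ± 76.2, 260 ± 193 and 410 ± 114 CPM. On the deposited scale Slc15a1, Slc6a20a and Slc7a7 had their highest mean in the jejunum.

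The basolateral light chain Slc7a8 and the apical carrier Slc36a1 did not follow this order. Slc7a8 averaged 205 ± 51.0, 322 ± 153 and 184 ± 93.7 CPM along the 3 segments, and was lower in the ileum than in the duodenum in 3 of 3 mice. Slc36a1 had 79.0 ± 36.5, 155 ± 96.2 and 89.6 ± 118 CPM, and was also lower in the ileum than in the duodenum of 3 of 3 mice. Its ileal mean rests on VSG replicate 5, a mouse with no other segment, at 265 CPM, while the other 3 ileal libraries had a lowest value of 4.83 and the median of all 4 was 44.5. Slc3a2 had 178 ± 44.6, 330 ± 149 and 316 ± 133 CPM, with jejunum and ileum well inside each other's spread. Slc7a7 had 120 ± 39.8, 193 ± 71.9 and 282 ± 28.5 CPM, and the 4 ileal libraries kept within 245 to 315. Jejunum VSG replicate 1 had the lowest jejunal value of Slc36a1 (12.2 CPM), Slc7a8 (73.6) and Slc3a2 (61.4) and the highest of Slc1a1. This is the library that carries ileal markers.

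**Figure D1:**
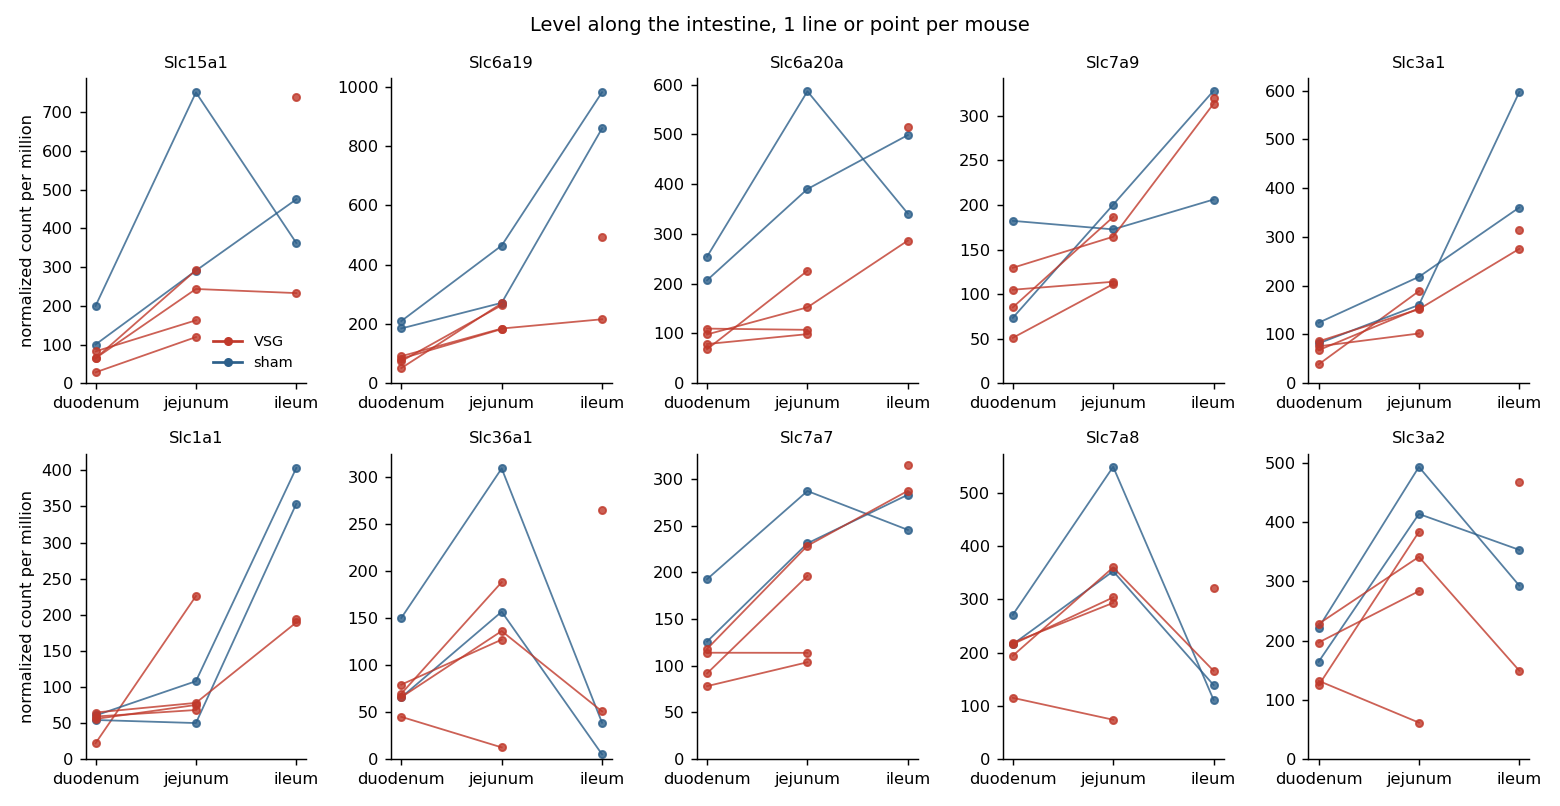
Normalized count in CPM (vertical axes, linear, from 0) for each carrier in the duodenum, jejunum and ileum. Each line or lone point is 1 mouse, red after VSG and blue after sham surgery. The means of Slc6a19, Slc7a9, Slc3a1 and Slc1a1 are highest in the ileum, whereas Slc36a1 and Slc7a8 drop from the jejunum to the ileum in the 3 mice with all segments.

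Compared per kb of transcript on the deposited scale, the common heavy chain Slc3a2 had the highest mean level of the members in each segment, with 4708, 6761 and 3966 normalized counts per kb in the duodenum, jejunum and ileum. Among ileal libraries it was the highest member only in VSG replicate 5 (5662). Above it were Slc7a9 in VSG replicate 4 (3555 against 1804), Slc6a19 in sham replicate 1 (6238 against 4027) and Slc3a1 in sham replicate 2 (5914 against 4369). Slc1a1 was the lowest in the duodenum (662) and jejunum (924), and Slc36a1 in the ileum (379.8). The light chain Slc7a9 and its heavy chain Slc3a1 had a ratio per kb of 1.53 ± 0.259 (SD, n = 6), 1.18 ± 0.305 (n = 6) and 0.959 ± 0.355 (n = 4) in duodenum, jejunum and ileum. On the basolateral side, Slc7a8 stood to Slc3a2 as 0.527 ± 0.146, 0.449 ± 0.0695 and 0.286 ± 0.153, and Slc7a7 to Slc3a2 as 0.540 ± 0.108, 0.586 ± 0.379 and 0.845 ± 0.465. Duodenal and ileal libraries overlapped in both ratios, at 0.379 to 0.773 and 0.169 to 0.495 for Slc7a8 and at 0.412 to 0.694 and 0.536 to 1.54 for Slc7a7.

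In the duodenum, all 10 carriers had lower mean log2 levels after VSG than after sham surgery, where 49.3% of the 16867 genes tested did. The 3 with the lowest values relative to sham were the apical carriers Slc6a19, Slc6a20a and Slc15a1, with ratios of the sham to the VSG mean of 2.80, 2.77 and 2.69. Each segment was tested with limma on log2(normalized count + 1). None of the 10 passed the study's thresholds (p under 0.05, adjusted p under 0.2, absolute log2 fold change above 0.5 and mean above 50), which 0.0237% of the genes tested did. The study set these thresholds on DESeq2 p-values and called far more genes in each segment. Passing them here, in any segment, is a result of limma and not the outcome of the study's own test. With an unadjusted limma p under 0.05, 4 of 10 were lower and 0 higher, against 3.48% and 2.79% of all genes (6.27% in either direction). In 5 of 10 the highest VSG value was under the lower sham value, against 8.01% of all genes, and in 0 of 10 the lowest VSG value was over the higher sham value, against 6.44%.

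Slc6a20a, the proline carrier, had 3239.9, 3717, 5142 and 4595 normalized counts over VSG replicates 1 to 4, and the sham replicates had 13154 and 9925. All VSG libraries lay well below both sham libraries, and the log2 fold change was -1.48 ± 0.26 (SE; limma adjusted p = 0.292). Slc6a19 had 3532, 2407, 3889 and 4269 after VSG and 10856 and 8863 after sham surgery, again with a wide gap between the groups. Its log2 fold change was -1.51 ± 0.28 (limma adjusted p = 0.292). The peptide carrier Slc15a1 had 1335, 3033, 3853 and 3033 after VSG and 10336 and 4797 after sham surgery. The groups did not overlap, but sham replicate 1 was well above sham replicate 2, and the log2 fold change was -1.42 ± 0.45 (limma adjusted p = 0.560), or -0.87 without sham replicate 1.
The basolateral Slc7a7 had 3699, 4324, 5331 and 5525 after VSG against 9961 and 6028, a log2 fold change of -0.73 ± 0.28 (limma adjusted p = 0.681). These 4 genes had an exact permutation p of 0.0667 (two-sided), the smallest that 4 libraries against 2 allow. Slc7a8 had 5449.7, 10184, 10232 and 9093 after VSG against 14015 and 10334, groups that parted by a narrow margin (log2 fold change -0.51 ± 0.30). The other 5 had log2 fold changes of -0.29 (Slc3a2) to -0.73 (Slc3a1), with overlapping groups. Slc1a1 was even across libraries except in VSG replicate 1, with 1029.5, 2775, 2598 and 3016 after VSG and 2793 and 2889 after sham surgery. Without sham replicate 1, which leaves 1 sham library, the sign of Slc7a9 turned, from -0.48 to 0.23, and 9 of 10 members were lower. The median log2 fold change of the 10 then moved from -0.73 to -0.37. Slc36a1 came to -0.07, Slc3a2 to -0.02, Slc3a1 to -0.38 and Slc7a7 to -0.37, while Slc6a19 and Slc6a20a stayed at -1.36 and -1.27.

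**Figure D2:**
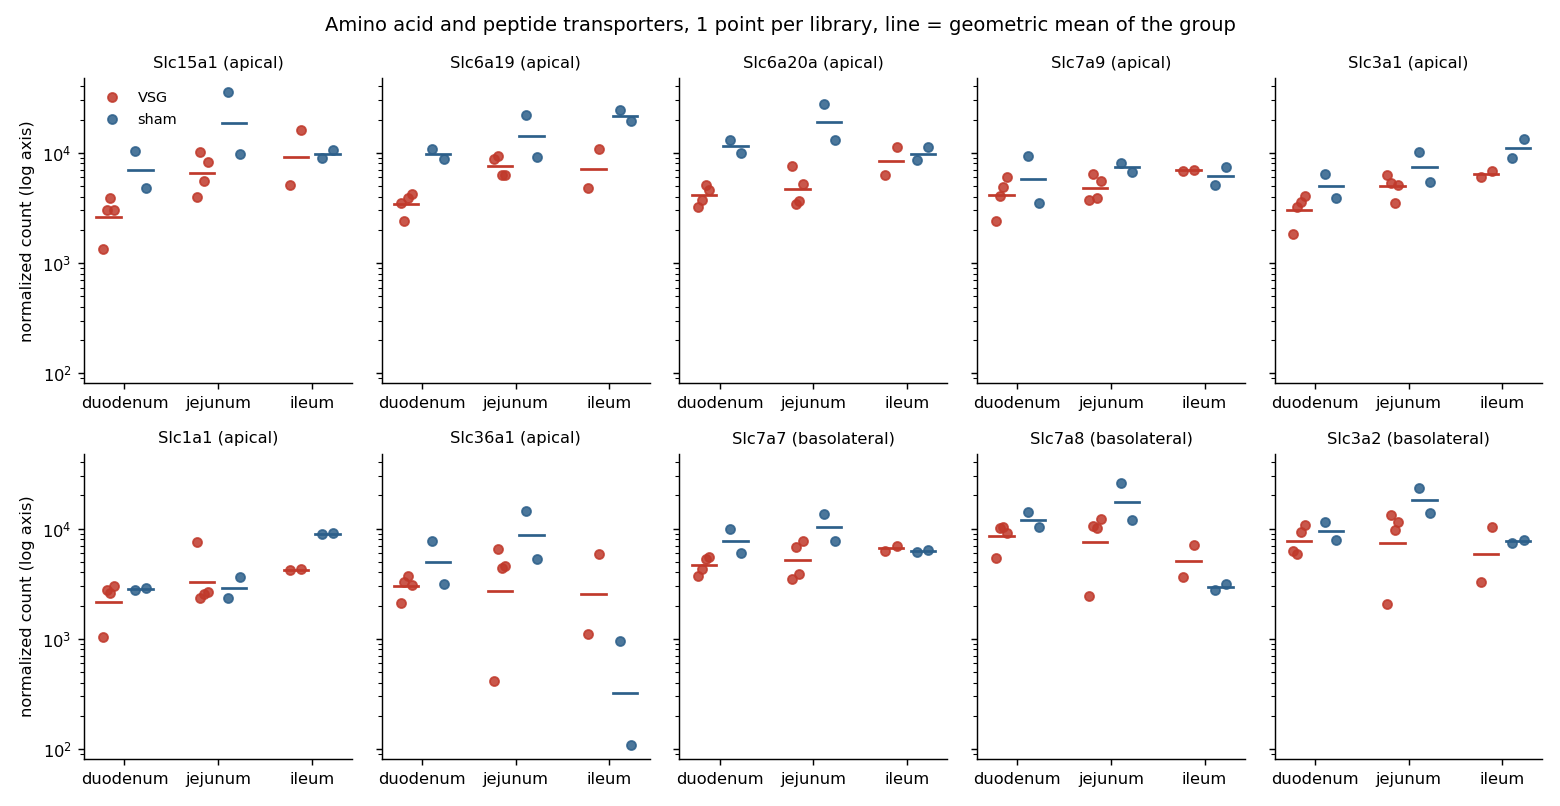
Normalized counts (log axis) of the 7 apical and 3 basolateral carriers in each segment, 1 point per library, red for VSG and blue for sham, with a line at the geometric mean of each group. In the duodenum the VSG points of Slc15a1, Slc6a19, Slc6a20a, Slc7a7 and Slc7a8 all lie below the sham points.

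The jejunum gave lower mean log2 levels after VSG for 9 of 10 carriers, with Slc1a1 as the exception, against 45% of the 15857 genes tested. Slc6a20a was the member with the lowest level relative to sham. In 4 of 10 (Slc6a20a, Slc7a9, Slc7a7 and Slc3a2) the highest VSG value was under the lower sham value, against 6.21% of all genes, and in 0 of 10 the reverse held, against 6.59%. With an unadjusted limma p under 0.05, Slc15a1, Slc6a19, Slc6a20a and Slc7a7 were lower, 4 of 10 against 2.4% of all genes, and 0 were higher, against 3.63% (6.04% in either direction). None passed the study's thresholds, which 0.0126% of genes passed, and the smallest adjusted p of a member was 0.668.

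Slc6a20a had 7557, 3399, 3680.1 and 5159.9 normalized counts after VSG and 27621 and 13148 after sham surgery. The lower sham library was above every VSG library, and the log2 fold change was -2.02 ± 0.43 (limma adjusted p = 0.668, exact permutation p = 0.0667, two-sided). Slc15a1 had 3989.8, 10075, 5579 and 8243 after VSG against 35397 and 9804, so that only sham replicate 1 stood above the VSG libraries (log2 fold change -1.51 ± 0.53). Slc6a19 had 8811, 9292, 6270.2 and 6246 against 21880.3 and 9142, with the same library apart (-0.91 ± 0.40). Slc7a7 had 3466, 6759, 3898 and 7728 against 13515 and 7783, where the lower sham library was only just above the highest VSG library (-0.99 ± 0.42).
For the other basolateral carriers, Slc3a2 had 2055, 13234, 9733 and 11561 after VSG against 23249 and 13955 (-1.28 ± 0.67). Slc7a8 had 2464, 10466, 10065 and 12184 against 25864 and 11890.2, groups that overlapped (-1.23 ± 0.62). In both genes VSG replicate 1, the library with ileal markers, was several times below the other VSG libraries. Slc36a1 showed this most, with 409.9, 6478, 4351 and 4601 after VSG against 14546 and 5274 (-1.70 ± 0.96). Slc1a1 showed the reverse, with 7558, 2338, 2567 and 2629.6 after VSG against 2341 and 3632 (0.18 ± 0.50). Slc7a9 and Slc3a1 had log2 fold changes of -0.63 ± 0.34 and -0.59 ± 0.38.

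Leaving out jejunum VSG replicate 1 and jejunum sham replicate 1 together, a comparison added after the data were seen, put all 10 carriers lower, and their median log2 fold change moved from -1.11 to -0.35. Slc6a20a stayed at -1.71 ± 0.32 (limma adjusted p = 0.370), while Slc15a1 came to -0.34 ± 0.42 and Slc6a19 to -0.36 ± 0.33. Slc36a1 came to -0.06 ± 0.31, Slc3a2 to -0.29 ± 0.24 and Slc7a8 to -0.13 ± 0.19, and without VSG replicate 1 alone these 3 were at -0.79, -0.66 and -0.69. Slc7a7, Slc7a9, Slc3a1 and Slc1a1 came to -0.40, -0.38, -0.24 and -0.53 without both libraries. In 6 of 10 the 3 VSG libraries then lay below the 1 sham library, against 25.6% of all genes. Without VSG replicate 1 alone this held for 5 of 10 carriers, against 8.87%, and without sham replicate 1 alone for 4 of 10, against 19.2%. Without sham replicate 1 alone the median was -0.59 and no member was called. Without sham replicate 2 alone, Slc15a1, Slc6a19 and Slc6a20a were called (limma adjusted p of 0.0985, 0.0784 and 0.0709), among 2710 genes, of which 784 were lower (17.4% and 5.02% of the genes tested). That fit has sham replicate 1 as its only sham library, so the spread comes from the VSG libraries and the lone sham library is assumed to vary like them. With each library scaled to the same total the median of all genes moved from 0.11 to 0.34 and that of the members from -1.11 to -0.88, and 9 of 10 were still below 0.

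In the ileum, with 2 VSG and 2 sham libraries, 6 of 10 carriers had lower mean log2 levels after VSG, against 43% of the 13853 genes tested, and the members differed in direction. Slc6a19, Slc3a1 and Slc1a1 had both VSG libraries below both sham libraries, 3 of 10 against 11.6% of genes, and Slc36a1 and Slc7a8 had both above, 2 of 10 against 17%. With an unadjusted limma p under 0.05, Slc6a19 and Slc1a1 were lower, 2 of 10 against 1.19% of genes, and 0 were higher, against 2.09% (3.28% in either direction). No gene of all those tested passed the study's thresholds, a share of 0%.
Slc6a19 had 4747 and 10862 normalized counts in VSG replicates 4 and 5, and the sham replicates had 24554 and 19344. The groups were well apart, and the log2 fold change was -1.60 ± 0.48 (limma adjusted p = 0.736). Slc1a1 had 4163 and 4250.4 against 8847 and 9075, the tightest groups of any member in this segment (-1.09 ± 0.35). Slc3a1 had 6062 and 6886 against 9011 and 13431 (-0.77 ± 0.37). The exact permutation p of these 3 was 0.333 (two-sided), the smallest that 2 libraries against 2 allow.
Slc7a8 had 3645 and 7045 after VSG against 2780.0 and 3125 (0.78 ± 0.50). Slc36a1 had 1111 and 5816 against 961 and 109, a gap between the groups of only 1111 against 961 and a log2 fold change of 2.97 ± 1.36. With 1 library left out this ranged from 1.40 (without sham replicate 2) to 4.54 (without sham replicate 1). Its value in ileum sham replicate 2, the shallowest library, rests on about 52.4 reads. Slc15a1 (5123 and 16268 against 9062 and 10689.6), Slc6a20a (6303 and 11325 against 8524 and 11213), Slc3a2 (3282 and 10299 against 7325 and 7948), Slc7a9 and Slc7a7 had overlapping groups. In Slc15a1 and Slc3a2, the 2 VSG libraries lay on either side of both sham libraries.

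Markers of position along the intestine differed between the ileal groups. The distal markers Fabp6, Slc10a2 and Fgf15 summed to 1602 and 3774 CPM after VSG and to 7209 and 9130.1 after sham surgery, with all 3 lower after VSG, and the proximal markers to 42.8 and 46.2 against 0 and 20.4. Their part in the ileal differences, including Slc36a1 and Slc7a8, which were also low in the ileum relative to the jejunum, was not tested. Without VSG replicate 5, Slc6a19, Slc1a1 and Slc3a2 were called as lower (limma adjusted p of 0.190, 0.183 and 0.180), among 631 genes called, 58 of them lower (4.63% and 0.426% of the genes tested). Without VSG replicate 4, 3 of 10 carriers were below 0, with 625 genes called. In each of these fits 1 VSG library remains, so the spread comes from the 2 sham libraries and the lone library is assumed to vary like them. Scaled to the same total, Slc15a1 turned from -0.11 to 0.00 and 5 of 10 were below 0.

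**Figure D3:**
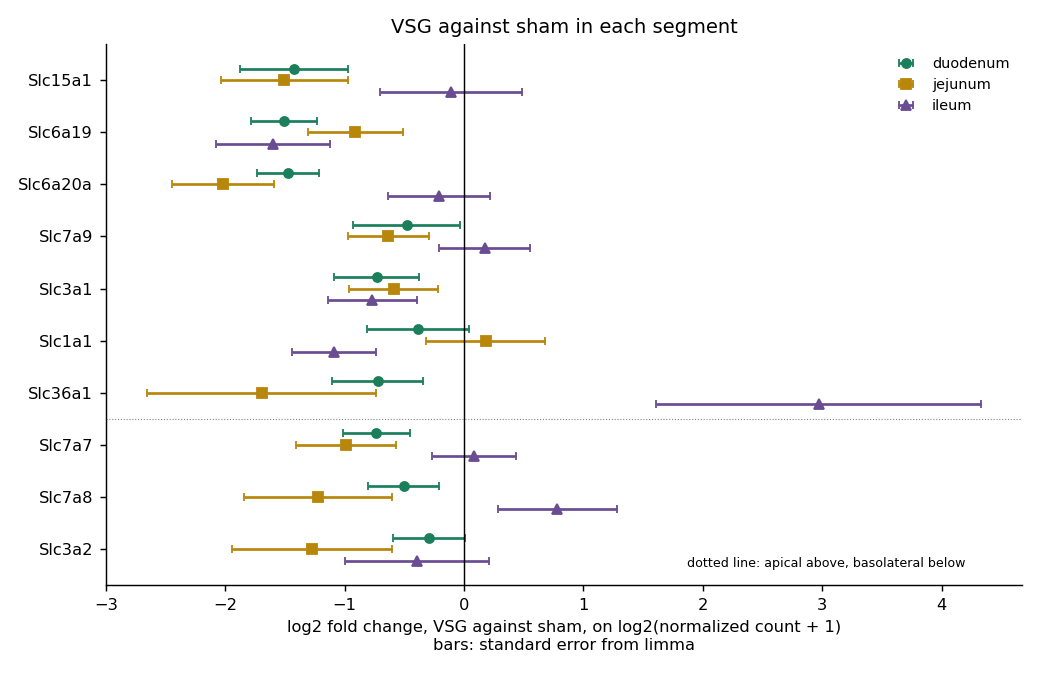
Log2 fold change of VSG against sham on log2(normalized count + 1), with the standard error from limma, for each carrier in the duodenum (circles), jejunum (squares) and ileum (triangles). Apical carriers are above the dotted line and basolateral carriers below it. The duodenal and jejunal points lie left of 0 except for jejunal Slc1a1, and the ileal points lie on both sides.

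The VSG effect in the jejunum was compared with that in the duodenum within the 6 mice that gave both, by fitting limma to the jejunal less the duodenal value of each mouse. The differences ranged from -0.98 ± 0.66 (Slc3a2) to 0.60 ± 0.48 (Slc6a19). For none of the 10 carriers did the effects differ past an unadjusted p of 0.05, against 4.1% of the 14718 genes tested, and the smallest adjusted p of a member was 0.948. Over all genes, 0 had an adjusted p under 0.2, the share of genes being 0%, and 604 an unadjusted p under 0.05. Without VSG replicate 1, Slc6a20a was at -0.89 ± 0.36 (limma unadjusted p = 0.0431, adjusted p = 0.902), with 609 of 14586 genes under 0.05 unadjusted. Without VSG replicate 2, Slc3a2 was at -1.40 ± 0.57 (limma unadjusted p = 0.0438, adjusted p = 0.9997), with 429 of 14505 genes under 0.05. Without sham replicate 1, which leaves 1 sham mouse, Slc6a20a was at -0.21. The effects in the ileum and the other segments were not compared by a test, since only 1 VSG mouse gave all 3 segments.

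The apical carriers were compared with the basolateral carriers in each library, as a description with no test. The mean log2 level of the 7 apical minus that of the 3 basolateral carriers was -1.30, -1.01, -1.04 and -1.06 for duodenal VSG replicates 1 to 4, and -0.56 and -0.74 for the sham replicates. The groups did not overlap, with means of -1.10 and -0.65, a difference of -0.45, or -0.58 when summed normalized counts were compared. The apical mean was 11.6 ± 0.437 (SD, n = 4) after VSG and 12.6 ± 0.525 (n = 2) after sham surgery, and the basolateral mean 12.7 ± 0.325 and 13.2 ± 0.402. Slc15a1, Slc6a19 and Slc6a20a carry the gap, since the other 4 apical members had log2 fold changes of -0.38 to -0.73, inside or at the edge of the basolateral range of -0.29 to -0.73.
In the jejunum the values were 0.66, -0.82, -0.82 and -1.01 after VSG and -0.64 and -0.64 after sham surgery. VSG replicate 1 alone was above 0, as were the ileal libraries, and the other 3 VSG libraries were below both sham libraries. The difference between the group means was 0.14 with that library and -0.25 without it. The ileal values were 0.04 and 0.04 after VSG and 0.47 and 0.11 after sham surgery, a difference of -0.25, or -0.66 with summed counts. Between segments the larger step was to the ileum, where the apical mean was above the basolateral one in all 4 libraries.

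**Figure D4:**
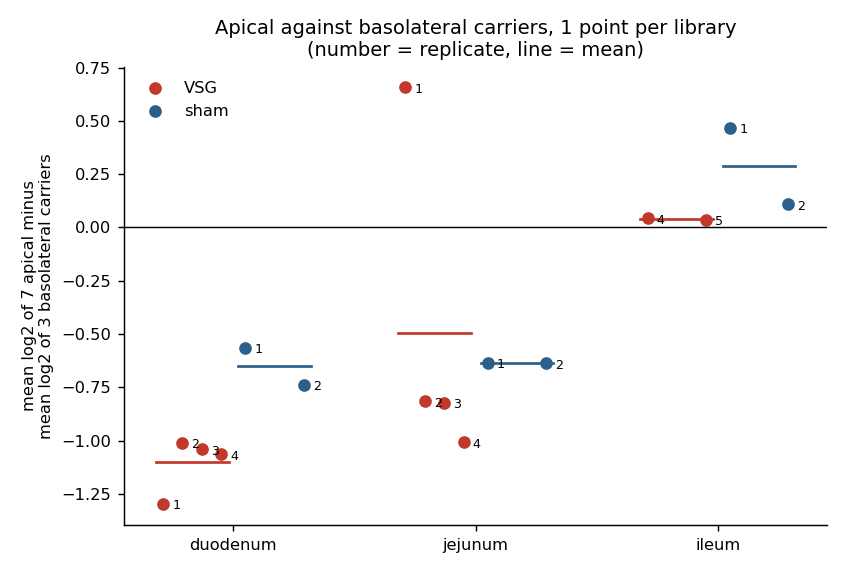
Mean log2(normalized count + 1) of the 7 apical carriers minus that of the 3 basolateral carriers (vertical axis, log2 units) in each library, red for VSG and blue for sham, with the replicate number beside each point and a line at the group mean. The 4 duodenal VSG points lie below both sham points, and jejunum VSG replicate 1 (0.66) lies apart from the other jejunal libraries.

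Enterocyte markers differed in the same direction as the carriers. In the duodenum all 11 had lower levels after VSG, against 49.3% of all genes. The median log2 fold change of the markers was -1.30, that of the carriers -0.73 and that of all genes 0.01. The sum of the markers was 6578 to 13324 CPM after VSG and 14777 and 20174 after sham surgery. The jejunum also had all 11 lower (median -1.58, against -1.11 for the carriers), where 45% of all genes were lower. The ileum had 5 of 11 lower (median 0.01, against -0.16), where 43% of all genes were. Jejunal sums overlapped, at 11763 to 25036 CPM after VSG and 21903 and 42259 after sham surgery. The highest is sham replicate 1, and the marker counts and medians are not given without it. Ileal sums also overlapped, at 11867 and 24942 after VSG and 18971 and 21616 after sham surgery. Set against the enterocyte markers of the same library, the carriers had a higher mean after VSG in each segment when all libraries were used. Their mean log2 level minus that of the markers was -2.27, -2.47, -2.54 and -1.69 in duodenal VSG replicates 1 to 4 and -2.69 and -2.65 after sham surgery, groups that did not overlap. The group difference was 0.43 in the duodenum, and 0.32 and 0.11 in the jejunum and ileum, where the groups overlapped. The jejunal difference was 0.06 without sham replicate 1 and -0.05 without both libraries that stood apart. In sorted cells measured in bulk, fewer maturing cells in the sort and less carrier RNA per cell cannot be told apart. The part of the enterocyte markers in the carrier differences was not tested. Summed tuft cell markers were 263 to 574 CPM after VSG and 83.6 and 193 after sham surgery in the duodenum, and overlapped in the other segments. Stem cell marker sums overlapped in the duodenum, at 1276 to 2616 and 1458 to 1719.9, and in the jejunum, at 926 to 1464 and 244 to 1350. In the ileum they did not overlap, at 420 and 592 after VSG and 206 and 330 after sham surgery. Of the stem cell markers tested, 7 of 8, 8 of 8 and 6 of 7 were higher after VSG in duodenum, jejunum and ileum. Of all genes tested, 49.3%, 45% and 43% were lower in these segments. The marker counts use all libraries, jejunum sham replicate 1 among them.

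**Figure D5:**
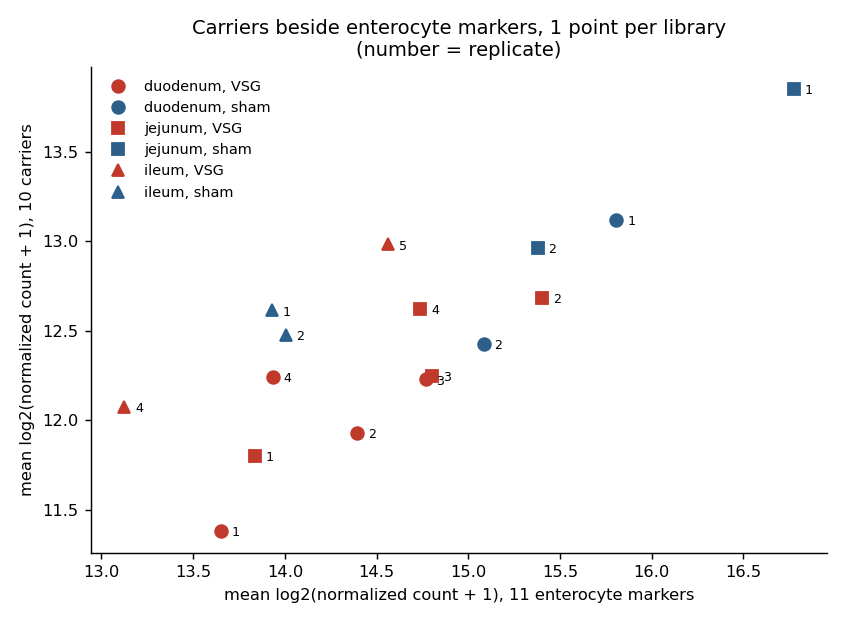
Mean log2(normalized count + 1) of the 10 carriers (vertical axis) against that of 11 enterocyte markers (horizontal axis) in each of the 16 libraries, with circles for duodenum, squares for jejunum and triangles for ileum, red for VSG and blue for sham, and the replicate number beside each point. Jejunum sham replicate 1 is highest on both axes, and the ileal libraries lie above the duodenal libraries with like marker levels.

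Of the brush border partners in the duodenum, the scaffolds Pdzk1 and Slc9a3r1 were lower with an unadjusted p under 0.05. Pdzk1 had 1488 ± 753 normalized counts after VSG and 6997 ± 4424 after sham surgery (log2 fold change -2.21 ± 0.51, limma adjusted p = 0.434), and Slc9a3r1 had a log2 fold change of -0.80 ± 0.30. The sodium-proton exchanger Slc9a3, named after its value was seen, had 0.21 ± 0.31, and Tmem27, which was low, -2.61 ± 2.59. The brush border peptidases, which cut peptides for uptake, were lower in 10 of 10, against 49.3% of all genes, with a median of -0.96. Of these peptidases, 6 were lower past an unadjusted p of 0.05, against 3.48% of all genes. Among them Xpnpep2, which cuts before proline, had 627 ± 409 after VSG and 2142 ± 477 after sham surgery (limma adjusted p = 0.555). The log2 fold changes of the others were Mme -1.46 ± 0.40, Ggt1 -1.44 ± 0.34, Ace -1.34 ± 0.39, Naaladl1 -1.05 ± 0.41 and Mep1a -0.87 ± 0.33. The most abundant peptidase, Anpep, had 77039 ± 28707 and 120229 ± 46614 (-0.69 ± 0.44), and Enpep had a log2 fold change of -0.54 ± 0.52.
None of these genes passed the study's thresholds. In the jejunum 9 of 10 peptidases were lower, against 45% of all genes. Ggt1 (-1.50 ± 0.48) and Mme (-1.95 ± 0.74) were lower past an unadjusted p of 0.05, against 2.4% of all genes. In the ileum 9 of 10 were lower, against 43% of all genes. Naaladl1 (-0.91 ± 0.25), Ggt1 (-1.02 ± 0.35) and Mep1a (-0.84 ± 0.29) were lower past that p, against 1.19% of all genes. Anpep had -0.82 ± 0.64 in the jejunum and -0.68 ± 0.30 in the ileum, Enpep -0.72 ± 0.43 and -0.52 ± 0.24, and Pdzk1 -1.18 ± 0.61 and -1.44 ± 0.94, each with p above 0.05.

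The other amino acid and peptide carriers, many of which serve the needs of any cell, were lower in some cases and higher in others. Of 26 tested in the duodenum, 17 were lower and 9 higher, where 49.3% of all genes were lower. The median log2 fold change of the 26 was -0.13, and 0 were past an unadjusted p of 0.05, against 6.27% of all genes. The 3 most abundant were Slc43a2 (-0.12 ± 0.47), Slc6a6, the taurine carrier (-0.20 ± 0.31), and Slc1a5, a glutamine carrier of dividing cells (0.05 ± 0.40). Of 24 tested in the jejunum, 9 were lower and 15 higher, where 45% of all genes were lower. Past an unadjusted p of 0.05, 1 was lower and 2 were higher, against 2.4% and 3.63% of all genes. The lower gene was Slc16a10, the basolateral carrier of aromatic amino acids, with 1816, 6154, 4449.7 and 5899.7 after VSG and 17892 and 6354 after sham surgery (-1.37 ± 0.56). The higher genes, Slc1a4 and Slc7a6, were listed at 0 in sham replicate 1, and their standard errors were 2.20 and 2.01. Slc7a6 had 885, 422, 525 and 109.5 after VSG and 140.2 in sham replicate 2.
In the ileum 22 were tested and 9 were lower, where 43% of all genes were. Of the 22, 0 were past an unadjusted p of 0.05, against 3.28% of all genes. Genes of the amino acid stress response, led by Atf4, had medians of 0.33, 0.23 and 0.78 in the 3 segments, against 0.01, 0.11 and 0.24 for all genes. Atf4 had a log2 fold change of 0.33 ± 0.20 in the duodenum, where all VSG libraries were above both sham libraries, and Asns, a target of this response, -0.68 ± 0.44. Ddit3 had 0.40 ± 0.44. Psat1 and Phgdh, enzymes of serine synthesis, were past an unadjusted p of 0.05 in the jejunum and also listed at 0 in sham replicate 1.

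Across the 16 libraries, with each segment's mean removed, the carriers varied together to different degrees. The highest Pearson correlation between members was 0.89, between Slc15a1 and Slc7a7, and the lowest was -0.57, between Slc1a1 and Slc36a1. Among jejunal libraries, VSG replicate 1 had the highest Slc1a1 and the lowest Slc36a1. The libraries share mice, depth and surgery, so these values are a description. Of 10712 genes compared, those most like each member included the enterocyte markers Alpi and Fabp2. Slc6a20a was most like Alpi, the intestinal alkaline phosphatase (r = 0.93), Cyp2c65 (0.93) and Pgrmc1 (0.93), Slc6a19 was like Aldh1a7 (0.94), Fabp2 (0.91) and Pdzk1 (0.87), and Slc15a1 like Cyp4v3 (0.96), Acsl5 (0.96) and Gpd1 (0.95). Slc7a8 was most like Tm4sf5 (0.98), the glucose carrier Slc2a2 (0.97) and Mdh2 (0.95), and Slc3a2 was like Bpnt1 (0.95), Cdc14b (0.94) and the fructose carrier Slc2a5 (0.92). Slc36a1 was like Slc25a36 (0.95), Ggh (0.92) and Cd36 (0.92), Slc3a1 like Rfk (0.95), Iqgap2 (0.93) and Anxa2 (0.93), and Slc7a7 like Prap1 (0.93), Acsl5 (0.91) and the nucleoside carrier Slc28a1 (0.90). The genes most like Slc7a9 were Lrrfip2 (0.85), its fellow member Slc7a7 (0.83) and Tmem263 (0.83), and those most like Slc1a1 were Cd55 (0.87), Mier3 (0.87) and B4galt1 (0.86).

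Some values may hold reads of other genes. Slc6a20a has a near copy, Slc6a20b, at 0 to 976 normalized counts. Prepl overlaps Slc3a1 and Oxa1l overlaps Slc7a7 on the opposite strand, at means of 506 to 1816 and 1540.1 to 4517 normalized counts over the segments. The library kit marks strand, and whether the quantification used it is not given in the sources used here.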

How the data were processed

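GFP+ cells from 3 intestinal segments of 7 mice gave 16 libraries of 85-base single-end reads. The authors mapped reads to mm10 with STAR 2.5.3a, quantified transcripts with Salmon 0.6.0 and deposited, per segment, a table of signal values, which are counts normalized with DESeq2. They left out other libraries for mapping under 25% (duodenum, jejunum) or 15% (ileum), which were not analysed here. The deposited fold changes and p-values of the authors' own comparisons were not used. Values were not whole reads for most genes (37.8% to 49.0% whole, within 0.01 of a read), so no count model was run. The value of 1 read gave an implied depth of 10.9 to 63.6 M reads per library, and this covers counting error only.

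VSG was compared with sham within each segment with limma 3.58.1 (R 4.3.3, variance trend) on log2(normalized count + 1). Genes needed a mean above 10, with Benjamini-Hochberg adjustment over all genes. Fold changes are on that scale, which understates changes of low genes. All 10 members passed the filter in each segment. Single members also had exact permutation tests. Called genes met the study's thresholds, applied here to limma p-values and not to those of DESeq2. Other settings tried were a pseudocount of 0.5 or 10, no filter or a mean above 50, quantile or same-total scaling, limma with no trend, a stricter adjusted p (0.05), the replicate number as a block, and each library left out in turn. The steps were tested on simulated data. All members are named, with the list genes that had an unadjusted p under 0.05 or were among the 3 most abundant of their list, and the 3 genes most correlated with a member. The results of a listed brush border partner are not reported here. Members and lists were chosen with earlier results of these data known. Positions are from GENCODE M21 and start-site windows from RefSeq, in which all 10 members matched. Means used Python 3.11.15, numpy 2.4.6 and pandas 2.3.3, and figures matplotlib 3.10.9. The comparison of carriers with enterocyte markers in each library was added after the values were seen.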

Additional observations from a re-analysis of the deposited data

Results flagged for a closer look

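In groups of 4 libraries, 20 were scanned (10 carriers in the duodenal and jejunal VSG groups). Of these, 5 held a library farther from the rest than Dixon's 95% limit for 4 values. That limit flags about 1 in 20 independent groups. The groups here share their libraries across the carriers, so they are not 20 separate trials. In each of the 5 it was VSG replicate 1, which is 1 mouse. In the jejunum this library had 7558 normalized counts of Slc1a1, above the other VSG libraries, and 409.9 of Slc36a1, 2464 of Slc7a8 and 2055 of Slc3a2, below them. It is the library with ileal markers (Fabp6 at 196951 normalized counts), and the part of that in these 4 values was not tested. In the duodenum VSG replicate 1 had 1029.5 normalized counts of Slc1a1, with Fabp6 listed at 0.

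Slc7a8 differed in sign between segments. All duodenal VSG libraries lay below both sham libraries and both ileal VSG libraries above, an ileal minus duodenal log2 fold change of 1.29. This difference was not tested.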

How the results depend on the processing

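Of the alternative values of single carriers, 488 kept their sign and their side of the study's thresholds, 6 were called where they had not been and 16 changed sign. Adding a replicate block left 0 genes called in the duodenum and 0 in the jejunum, with 10 and 9 carriers still lower. Same-numbered VSG and sham mice are different mice, and their deviations correlated at -0.067 and -0.0417 in the duodenum and 0.0533 and 0.00445 in the jejunum, so the numbers did not pair the libraries. No replicate block was possible in the ileum because its groups share no replicate numbers.

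The count of genes called over all genes was not stable. In the duodenum it was 4, and 0 with a pseudocount of 0.5, no filter, a filter at 50, same-total scaling or an adjusted p under 0.05, 10 with a pseudocount of 10 and 43 without trend. It was 2 in the jejunum, and 1 at an adjusted p under 0.05, 61 without trend and 48 without VSG replicate 1 and sham replicate 1 (chosen after seeing the data). It was 0 in the ileum, 3 with a pseudocount of 10 and 463 without trend. Leaving out each library gave 0 to 259, 1 to 2710 and 0 to 631 genes in the 3 segments, the highest without sham replicate 1, sham replicate 2 and VSG replicate 5. Carriers called ranged from 0 to 3 in the jejunum and ileum, and carriers below 0 from 9 to 10 in both the duodenum and the jejunum and from 3 to 7 in the ileum. Genes whose jejunal and duodenal effects differed numbered 0, 10 without trend and 0 to 815 over mice left out, the highest without sham replicate 2. The cause was not tested.

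Signs turned for Slc1a1 in the jejunum, -0.53 without both libraries and -0.22 to 0.50 with 1 left out, and in the ileum for Slc15a1 (0.000603 with same-total scaling, -0.94 to 0.72), Slc6a20a (-0.63 to 0.21), Slc7a9 (-0.0847 to 0.43) and Slc3a2 (-1.22 to 0.43). Duodenal Slc7a9 ranged from -1.19 to 0.23. The jejunal minus duodenal differences of Slc15a1 (-0.45 to 0.29), Slc7a9 (-0.73 to 0.42), Slc3a1 (-0.22 to 0.38) and Slc1a1 (-0.19 to 0.86) also turned. Members highest in the jejunum and ileum numbered 6 and 4 as deposited and 3 and 7 in CPM, and in CPM 1 and 9 over VSG and 5 and 5 over sham libraries alone (chosen after seeing the data). Apical minus basolateral differences were -0.58 in the duodenum and -0.66 in the ileum with summed counts, and over libraries left out -0.54 to -0.36, -0.25 to 0.31 and -0.43 to -0.07 in the 3 segments. With 2 sham mice per segment, differences of the size seen in most carriers could not be told from the spread between mice.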
